A study of Mus musculus with 27 samples.

Results

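Cells exposed to damaged or misfolded protein raise a small set of cytosolic chaperones, proteins that hold, refold or hand on unfolded chains. The transcription factor HSF1 drives this heat shock response: at rest it is held inactive in the cytosol by chaperones including Hsp90, and on stress it forms trimers that bind repeats of the motif nGAAn in the promoters of its targets. Lymphocytes also make more of the constitutive chaperones when they leave rest and begin to grow. The 10 genes described here are the heat shock 70 genes Hspa1a, Hspa1b and Hspa8, their partners Dnajb1, Hsph1 and Bag3, the cytosolic heat shock 90 genes Hsp90aa1 and Hsp90ab1, the small heat shock protein gene Hspb1, and Hsf1 itself. They were taken by gene name from count tables listing 54532 genes, and all 10 were found in both tables and passed the low-count filter in every comparison.

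The samples were spleen B cells of wild-type (WT) C57BL6 mice, purified by negative selection and cultured, with a time of 3 h for all. Every library held mRNA selected with poly-T beads. The question behind the design was what disulfiram (DSF), a drug used against alcohol dependence, does to B cells given a T-independent or a T-dependent stimulus. The first experiment held 20 libraries, 4 in each of 5 groups: unstimulated cells with the DMSO vehicle, cells with lipopolysaccharide (LPS) and vehicle, cells with LPS and 1 µM DSF, cells with IL-4 plus anti-CD40 antibody and vehicle, and cells with IL-4 plus anti-CD40 and 1 µM DSF. The second experiment held 7 libraries, 1 for each of the same 5 conditions and 1 for each stimulus with 1 µM ibrutinib, an inhibitor of the B cell kinase BTK. The study describes the cells given either drug as pre-treated with it, and the 3 h as counted from the stimulus. No library held unstimulated cells with DSF, so the effect of DSF without a stimulus was not measured. The labels give no age and do not say whether libraries of a group came from separate mice or cultures, so the p-values measure the spread between these samples.

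Total counts per library ran from 17804851 to 23632992 in the first experiment and from 16049295 to 24619776 in the second. All 6 B cell markers were detected in every group, with a summed level of 3011 to 8327 CPM, the counts of a gene scaled to library size, in the first experiment, while 4 T cell markers summed to at most 6.34 CPM and 3 NK cell markers to at most 1.86 CPM. The 4 myeloid markers summed to 489 to 640 CPM in unstimulated cells and to at most 254.5 CPM in all other groups. In the first experiment 2 sets of libraries stood most apart in the chaperone genes. Replicates 3 and 4 of IL-4+anti-CD40 without DSF were above replicates 1 and 2 in 9 of the 10 genes, and unstimulated replicates 1 and 2 were above replicates 3 and 4 in Hspa1a, Hspa1b, Hspb1, Hsph1, Bag3, Hsp90aa1, Hsp90ab1 and Hsf1. How many of all genes split in these ways was not counted, so the splits are not shown to be particular to these genes. Smaller relative steps in the direction of the IL-4+anti-CD40 split were present in some or most chaperone genes of the other stimulated groups, as given further below. In the unstimulated group the cell markers split along the same line: B cell markers summed to 5364 and 5310 CPM in replicates 1 and 2 and to 8327 and 8256 CPM in replicates 3 and 4, and the 3 neutrophil markers to 31.51 and 30.46 against 5.73 and 8.96 CPM. The IL-4+anti-CD40 libraries summed to 4250, 4344, 3958 and 3902 CPM for B cell markers. The part of these marker differences in the results was not tested. Called values of the members that move by more than 1.5 times or change their call without these libraries are also given without them, a choice made after their values were seen.

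Promoters were read from RefSeq on GRCm38.p6 as the 250 bases before the start of transcription, and those of the members that hold the paired heat shock motif are shown, since HSF1 binds near the starts of its targets. 6 of the 10 genes were in the promoter table: Hspa1a, Hspa1b, Hspb1, Hsph1, Bag3 and Dnajb1. Each promoter is printed 5′ to 3′ on the gene's strand, and capitals mark each match to a pair of head-to-head or tail-to-tail heat shock units, written GAANNTTC or TTCNNGAA, which read the same on both strands.
Hspa1b, chr17:34959239-34959488, minus strand: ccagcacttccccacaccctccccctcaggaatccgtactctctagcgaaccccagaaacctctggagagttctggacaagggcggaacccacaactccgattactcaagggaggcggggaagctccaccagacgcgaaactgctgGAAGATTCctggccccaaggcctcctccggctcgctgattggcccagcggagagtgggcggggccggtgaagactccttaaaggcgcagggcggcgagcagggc
Hspa1a, chr17:34972157-34972406, minus strand: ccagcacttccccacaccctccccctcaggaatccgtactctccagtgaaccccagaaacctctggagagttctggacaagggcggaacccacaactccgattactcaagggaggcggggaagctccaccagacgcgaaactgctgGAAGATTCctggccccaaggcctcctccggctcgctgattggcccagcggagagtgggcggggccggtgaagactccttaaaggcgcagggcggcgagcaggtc
Hspb1, chr5:135887669-135887918, plus strand: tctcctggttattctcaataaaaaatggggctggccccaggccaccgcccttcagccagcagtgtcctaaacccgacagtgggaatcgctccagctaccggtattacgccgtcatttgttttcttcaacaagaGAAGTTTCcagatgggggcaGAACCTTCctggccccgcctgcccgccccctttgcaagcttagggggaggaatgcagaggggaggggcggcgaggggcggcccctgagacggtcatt
Hsph1, chr5:149636337-149636586, minus strand: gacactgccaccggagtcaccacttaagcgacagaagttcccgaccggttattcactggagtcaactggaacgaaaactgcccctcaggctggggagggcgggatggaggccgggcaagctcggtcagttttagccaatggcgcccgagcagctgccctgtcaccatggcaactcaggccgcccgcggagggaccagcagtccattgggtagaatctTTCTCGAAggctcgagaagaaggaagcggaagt
The table has 8 promoters for these 6 genes, and the pair was in 5 of the 8. These 5 belong to 4 of the 6 genes, with overlapping windows of Hsph1 and the near-identical promoters of Hspa1a and Hspa1b among them. The pair was in 12.8% of all 32851 promoters. It lay 104 bases before the start in both Hspa1a and Hspa1b, 117 and 97 bases before the start in Hspb1, which had 2 copies, and 33 bases before the start in Hsph1, whose second entry in the table starts elsewhere and has it at 54 bases. It was not in the windows of Bag3 and Dnajb1. The longer form with 3 units, GAANNTTCNNGAA or TTCNNGAANNTTC, which contains the pair, was in 0.466% of all promoters and in none of these genes. The Hspa1b and Hspa1a promoters shared 98.8% of their bases and differed at 3 positions, T44C, C47T and G249T, counted from 1 at the first base printed and with the base of Hspa1b first.

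On the annotation of GRCm38, Hspa1a (chr17:34969190-34972156, minus strand) and Hspa1b (chr17:34956436-34959238, minus strand) are neighbours on chromosome 17 and encode the inducible Hsp70 that binds exposed hydrophobic stretches of unfolded proteins. Their transcripts are near copies. Of the 150-base windows of the Hspa1a transcript, 38.1% also occur in Hspa1b, so the authors' counting could move reads between the 2 genes and each value below is uncertain to that extent. A sum over both genes is free of this split. The sources used here do not name how reads matching both genes were treated, and a sum would not recover reads left out. Hspa1a also overlaps Gm20481 on the opposite strand, and the strand setting of the counting is not named in the sources used here, so reads of these overlapping genes cannot be told apart. The ratio of the deposited FPKM of Hspa1a to that of Hspa1b stayed between 0.446 and 0.625 in all 20 libraries of the first experiment.

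The level of Hspa1b in unstimulated cells was 29.14, 29.26, 3.64 and 3.47 CPM in replicates 1 to 4. With LPS it was 20.82, 16.19, 42.53 and 38.49 CPM. With LPS and DSF it was 4378, 4244, 5205 and 5444 CPM. Every library with DSF was far above every LPS library, with no overlap. With IL-4+anti-CD40 alone the 4 libraries spread over a wide range, at 15.69, 22.55, 181.4 and 687.9 CPM. With IL-4+anti-CD40 and DSF they were at 3444, 3883, 4083 and 4629 CPM. Replicates 3 and 4 without DSF were well above replicates 1 and 2 but below every DSF library.

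Hspa1a had the same order of groups. It was at 19.27, 17.16, 1.72 and 1.89 CPM in unstimulated cells and at 12.02, 10.59, 27.32 and 24.86 CPM with LPS. LPS with DSF gave 2716, 2522, 3312 and 3284 CPM. Libraries with IL-4+anti-CD40 had 9.54, 14.82, 104.9 and 410.1 CPM, and those with IL-4+anti-CD40 and DSF had 1988, 2366, 2364 and 2722 CPM. For both genes the DSF groups did not overlap with any group without DSF.

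Under LPS, edgeR gave a log2 fold change with DSF of 7.39 ± 0.19 (SE, n = 4 against 4) for Hspa1b, a 167.5-fold difference with a Benjamini-Hochberg adjusted p of 3.9e-21 over 14154 genes tested. For Hspa1a it was 7.35 ± 0.18, a 163-fold difference (edgeR adjusted p = 2.4e-21). They ranked 3 and 4 among all genes tested by the size of a rise with DSF under LPS. Under IL-4+anti-CD40 the log2 fold change was 4.10 ± 0.97 for Hspa1b and 4.08 ± 0.95 for Hspa1a (edgeR adjusted p = 0.0033 and 0.0029). That smaller value and its larger error rested on the stimulated libraries without DSF: leaving out replicates 3 and 4 gave 7.64 ± 0.18 for Hspa1b and 7.53 ± 0.19 for Hspa1a, and leaving out replicate 4 alone gave 5.72 and 5.71.

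Hspa8 (chr9:40800984-40810087, plus strand) encodes Hsc70, the constitutive Hsp70 that folds new proteins in unstressed cells. It was at 982.5, 955.6, 1034 and 970.8 CPM in unstimulated cells and at 2219, 2299, 2293 and 2202 CPM with LPS, which was above every unstimulated library. LPS with DSF brought it to 8047, 8854, 8885 and 9895 CPM. IL-4+anti-CD40 gave 2493, 2690, 3394 and 3910 CPM, and IL-4+anti-CD40 with DSF gave 8799, 8767, 9150 and 9470 CPM. The groups were stepped, with each DSF group wholly above its group without, and libraries lay close together within the unstimulated and LPS groups. The log2 fold change with DSF was 2.00 ± 0.05 under LPS and 1.48 ± 0.12 under IL-4+anti-CD40 (edgeR adjusted p = 2.5e-21 and 2.3e-06, n = 4 against 4). The annotated span of Hspa8 also holds the small nucleolar RNA genes Snord14c, Snord14d and Snord14e.

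Per length, the balance within the Hsp70 family changed with DSF. The deposited FPKM of Hspa1a and Hspa1b together, divided by that of Hspa8, was 0.0078 to 0.074 in unstimulated cells, 0.0175 to 0.0457 with LPS and 1.15 to 1.44 with LPS and DSF. It was 0.0152 to 0.422 with IL-4+anti-CD40 and 0.928 to 1.17 when DSF was added. In the first experiment the inducible pair therefore went from a lower share of Hspa8 to about its level in FPKM. That share was small except in IL-4+anti-CD40 replicates 3 and 4, at 0.127 and 0.422. The groups with DSF did not overlap with those without.

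**Figure D1:**
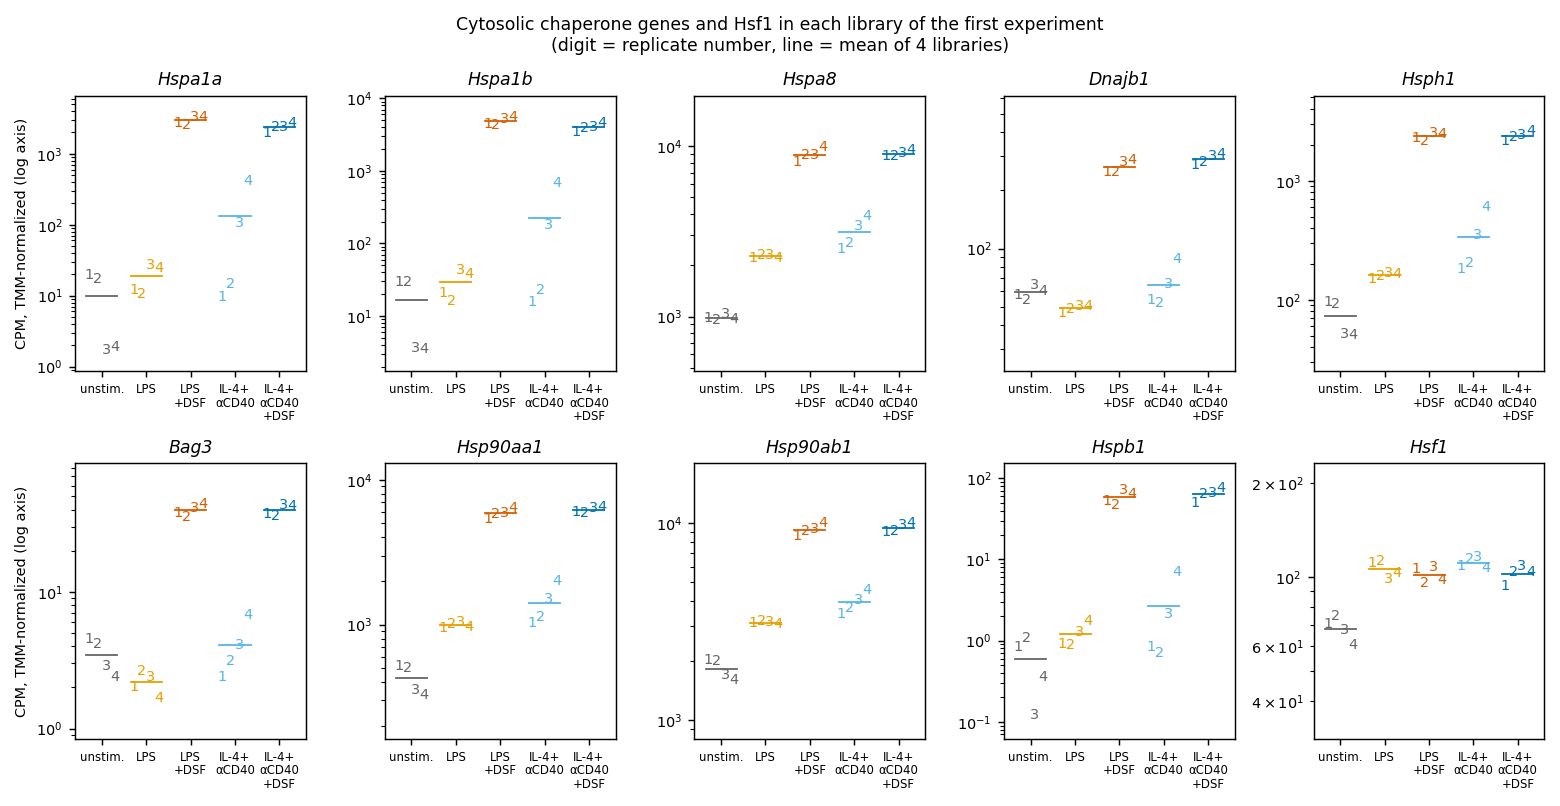
Level of each of the 10 genes in the 20 libraries of the first experiment, in TMM-normalized CPM on a log axis that differs between panels. Digits are replicate numbers and lines are means of 4 libraries. In 9 genes all 8 libraries with DSF lie above all 12 libraries without it, and for Hsf1 they do not. How many of all genes separate in this way was not counted.

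Dnajb1 (chr8:83608193-83612653, plus strand) encodes Hsp40, which brings clients to Hsp70 and starts its ATP cycle. It was at 57.46, 54.35, 64.71 and 60.25 CPM in unstimulated cells and at 46.27, 48.45, 50.58 and 50.34 CPM with LPS. With LPS and DSF it was at 247.9, 248.1, 279.4 and 287.8 CPM. All LPS libraries were below all unstimulated ones, and all libraries with DSF were far above both. IL-4+anti-CD40 gave 54.36, 52.33, 65.43 and 88.09 CPM, and 269.2, 279.6, 300.0 and 309.7 CPM with DSF. With DSF Dnajb1 rose by 2.46 ± 0.05 (log2) under LPS and 2.10 ± 0.14 under IL-4+anti-CD40 (edgeR adjusted p = 9.4e-23 and 1.1e-06).

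Hsph1 (chr5:149614287-149636376, minus strand) encodes Hsp110, which releases ADP from Hsp70 and helps to dissolve aggregates. It was at 95.99, 93.21, 51.82 and 50.35 CPM in unstimulated cells and at 149.1, 159.0, 169.4 and 164.8 CPM with LPS. LPS with DSF gave 2285, 2158, 2530 and 2489 CPM. Levels with IL-4+anti-CD40 were 181.2, 204.5, 351.0 and 603.0 CPM and those with IL-4+anti-CD40 and DSF were 2150, 2324, 2406 and 2593 CPM. The 5 groups were stepped, with unstimulated cells lowest, LPS next, then IL-4+anti-CD40, and the 2 DSF groups overlapping at the top. DSF changed Hsph1 by 3.90 ± 0.06 (log2) under LPS and by 2.77 ± 0.32 under IL-4+anti-CD40 (edgeR adjusted p = 8.2e-26 and 2.0e-05). The second value was 3.55 without IL-4+anti-CD40 replicates 3 and 4.

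Bag3 (chr7:128523616-128546981, plus strand) encodes a co-chaperone that releases clients from Hsp70 and directs aggregates to autophagy. It was scarce without DSF, at 4.51, 4.14, 2.86 and 2.39 CPM in unstimulated cells and 2.02, 2.63, 2.37 and 1.68 CPM with LPS. LPS with DSF gave 37.87, 35.62, 41.10 and 43.61 CPM. It was at 2.38, 3.10, 4.12 and 6.77 CPM with IL-4+anti-CD40 and at 36.98, 35.88, 43.06 and 42.33 CPM with IL-4+anti-CD40 and DSF. Its low group rested on 30 to 60 counts per LPS library, and the DSF groups lay clear of it. Bag3 rose with DSF by a log2 fold change of 4.18 ± 0.11 under LPS and 3.23 ± 0.23 under IL-4+anti-CD40 (edgeR adjusted p = 8.2e-21 and 1.4e-06). Bag3 overlaps the gene 2610306O10Rik on the same strand, and its counts are uncertain to that extent.

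Hsp90aa1 (chr12:110690605-110702728, minus strand) encodes the inducible cytosolic Hsp90, which matures kinases and receptors. It was at 517.1, 503.3, 354.5 and 324.0 CPM in unstimulated cells and at 946.2, 1011, 1034 and 970.2 CPM with LPS. With LPS and DSF it was at 5399, 5807, 5951 and 6404 CPM. IL-4+anti-CD40 gave 1028, 1124, 1501 and 2007 CPM without DSF and 5959, 5864, 6404 and 6502 CPM with it. No library with DSF overlapped with one without it. For Hsp90aa1 the effect of DSF (log2) was 2.59 ± 0.05 under LPS and 2.07 ± 0.17 under IL-4+anti-CD40 (edgeR adjusted p = 1.4e-23 and 2.7e-06).

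Hsp90ab1 (chr17:45567775-45573271, minus strand) encodes the constitutive cytosolic Hsp90. It had the smallest rise with DSF of the 9 chaperone genes under either stimulus and, per length, the highest FPKM of the 10 genes in every group of the first experiment. Its levels were 2006, 1995, 1686 and 1603 CPM in unstimulated cells, 3087, 3166, 3126 and 3078 CPM with LPS, and 8556, 9064, 9268 and 9996 CPM when LPS was given with DSF. For IL-4+anti-CD40 they were 3433, 3701, 4082 and 4587 CPM, and with DSF added 9015, 9073, 9702 and 9970 CPM. Here too each group with DSF lay wholly above its group without. The log2 fold change with DSF was 1.58 ± 0.05 under LPS and 1.20 ± 0.08 under IL-4+anti-CD40 (edgeR adjusted p = 4.0e-20 and 1.3e-06). The transcripts of Hsp90aa1 and Hsp90ab1 share no window of 50 bases or more.

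The ratio of Hsp90aa1 to Hsp90ab1 in deposited FPKM was 0.154 to 0.197 in unstimulated cells, 0.234 to 0.253 with LPS and 0.228 to 0.334 with IL-4+anti-CD40. With DSF it was 0.481 to 0.490 under LPS and 0.493 to 0.504 under IL-4+anti-CD40. The inducible form thus gained on the constitutive one, first with a stimulus and further with DSF, and no DSF library overlapped with any library without it.

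Hspb1 (chr5:135887919-135889563, plus strand) encodes a small heat shock protein, an ATP-independent holdase that keeps unfolded proteins soluble. It was nearly silent without DSF, at 0.83, 1.08, 0.12 and 0.36 CPM in unstimulated cells and 0.91, 0.88, 1.26 and 1.73 CPM with LPS, which were 3 to 31 counts per library. LPS with DSF gave 52.25, 47.10, 70.81 and 64.11 CPM. IL-4+anti-CD40 gave 0.83, 0.69, 2.13 and 7.08 CPM, and IL-4+anti-CD40 with DSF gave 49.69, 64.57, 65.74 and 76.20 CPM. As for Hspa1a and Hspa1b, replicates 3 and 4 of IL-4+anti-CD40 were above the other two. The log2 fold change with DSF was 5.65 ± 0.16 under LPS and 4.57 ± 0.47 under IL-4+anti-CD40 (edgeR adjusted p = 1.9e-20 and 9.8e-06), and the second value was 6.32 without those replicates and 5.64 without replicate 4 alone.

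Hsf1 (chr15:76477422-76501913, plus strand) encodes the factor itself. It was at 70.64, 74.73, 67.49 and 60.43 CPM in unstimulated cells and at 110.8, 112.3, 98.63 and 102.8 CPM with LPS. LPS with DSF left it at 106.2, 95.57, 107.7 and 97.75 CPM. With IL-4+anti-CD40 it was at 108.6, 113.9, 115.8 and 107.0 CPM, and with DSF added at 93.43, 103.9, 108.8 and 103.8 CPM. Both stimulated groups lay wholly above unstimulated cells, and each DSF group overlapped with its group without DSF. The log2 fold change with DSF was -0.04 ± 0.05 under LPS (edgeR adjusted p = 0.45, n = 4 against 4) and -0.18 ± 0.06 under IL-4+anti-CD40 (edgeR adjusted p = 0.016). The first value became -0.25 with an adjusted p of 1.7e-04 when libraries were scaled to their total counts in edgeR, a scaling that moved the median of all genes from 0.00 to -0.21. The second missed the threshold without IL-4+anti-CD40 replicate 2, at -0.16 (edgeR adjusted p = 0.055). These are transcript levels, and the activity of the HSF1 protein was not measured.

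Counted over the members, 9 of 10 rose with DSF under LPS at an adjusted p under 0.05, where 35.1% of all genes tested did. Under IL-4+anti-CD40, 9 of 10 rose where 30.1% of all genes did, and 1 fell, Hsf1, where 31.6% did. With a rise of at least 2-fold also required, the 9 chaperone genes remained under each stimulus, against 11.4% of all genes under LPS and 9.59% under IL-4+anti-CD40. The members' median change (log2) was 3.24 under LPS and 2.43 under IL-4+anti-CD40, beside 0.00 and -0.02 for all genes. All 9 rises stayed past the threshold under every alternative setting that gave an adjusted p, and the log2 fold changes under LPS ran from 1.37 for Hsp90ab1 to 7.60 for Hspa1b over all settings. With scaling to total counts the genes called higher and lower with DSF under LPS went from 4966 and 5096 to 3473 and 6680, and under IL-4+anti-CD40 from 4301 and 4514 to 3262 and 5832. Together the 10 genes held 0.653 to 0.675% of all counts with LPS and 2.83 to 3.20% with LPS and DSF. Their share was 0.802 to 1.33% with IL-4+anti-CD40 and 3.01 to 3.34% with DSF added.

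**Figure D2:**
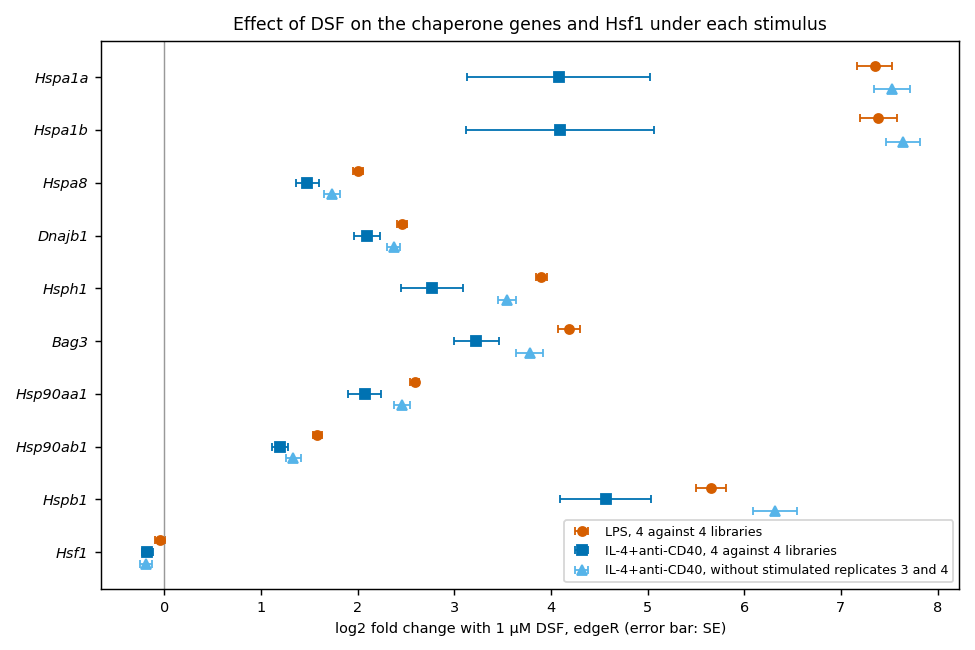
Log2 fold change with 1 µM DSF for each gene from edgeR, with its SE as error bar, under LPS (circles), under IL-4+anti-CD40 (squares), and under IL-4+anti-CD40 with stimulated replicates 3 and 4 left out (triangles). For Hspa1b the 3 points are at 7.39, 4.10 and 7.64, and for Hsf1 all 3 lie near 0.

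B cell markers were lower with DSF, at a summed 4358 to 4459 CPM with LPS and 3011 to 3193 CPM with LPS and DSF, and 6 of 6 fell in edgeR's test, where 36% of all genes fell. They were at 3902 to 4344 CPM with IL-4+anti-CD40 and 3162 to 3345 CPM with DSF added. There 4 fell and 1 rose, where 31.6% of all genes fell and 30.1% rose. Cd79a was at 406.4 to 475.4 CPM without DSF and 581.9 to 627.4 CPM with it. Ms4a1 was at 627.1 to 649.8 and 682.9 to 766.9 CPM. Itgam, the myeloid integrin CD11b, was at 5.82 to 7.11 CPM with LPS and 17.98 to 25 CPM once DSF was added, and at 2.48 to 5.09 and 15.69 to 17.77 CPM under IL-4+anti-CD40. The other myeloid markers did not rise under LPS. Lyz2 was at 71.71 to 83.9 CPM without DSF and 66.26 to 74.3 CPM with it. Csf1r was at 14 to 16.11 and 10.48 to 13.2 CPM, and Adgre1 at 8.10 to 9 and 6.74 to 7.93 CPM. In edgeR's test 1 of the 4 rose and 1 fell under LPS, beside 35.1% and 36% of all genes. Under IL-4+anti-CD40 2 of the 4 rose, beside 30.1% of all genes. The part of cell composition in the chaperone changes was not tested, and in such bulk samples fewer cells of a type and less RNA per cell cannot be told apart. Myeloid markers summed to at most 114 CPM with LPS alone and 116 CPM once DSF was present, and neutrophil markers to 7.41 to 8.16 and 9.65 to 11.5 CPM. With IL-4+anti-CD40 the myeloid sum was 145 to 175 CPM and 178 to 254.5 CPM with DSF, and the neutrophil sum 5.07 to 7.45 and 8.64 to 10.1 CPM.

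Against unstimulated cells, both DSF groups were higher in all 10 genes, where 34.3% of all genes were higher for LPS with DSF and 33.4% for IL-4+anti-CD40 with DSF. The largest differences were those of Hspa1a and Hspa1b, with log2 fold changes of 8.19 and 7.87 for Hspa1a. These rested on the split unstimulated libraries: Hspa1a was at 10.67 and 10.36 without unstimulated replicates 1 and 2 and at 7.29 and 6.98 without replicates 3 and 4, and Hspa1b at 10.39 and 10.14 and at 7.31 and 7.07. Hspb1 likewise moved to 7.91 and 8.06 and to 5.88 and 6.03. The smallest differences were those of Hsf1, at 0.57 and 0.59. Scaled to total counts, Hsf1 was not called higher for LPS with DSF, at 0.16 (edgeR adjusted p = 0.16). These comparisons share the unstimulated libraries with those of the stimuli alone, which follow.

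Stimulation without DSF raised some members and lowered others. LPS raised 5 of 10 members where 29.6% of all genes rose: Hsp90aa1 by 1.22 ± 0.15 (log2), Hspa8 by 1.19 ± 0.06, Hsph1 by 1.14 ± 0.22, Hsp90ab1 by 0.78 ± 0.09 and Hsf1 by 0.64 ± 0.08 (edgeR adjusted p from 1.4e-06 to 0.0017, n = 4 against 4). It lowered 2, where 33.3% of all genes fell: Dnajb1, which fell by 0.27 ± 0.07, and Bag3, which fell by 0.67 ± 0.25 (edgeR adjusted p = 0.0069 and 0.039). The call for Bag3 was lost without LPS replicate 1, 3 or 4 or without unstimulated replicate 1 or 2, at log2 fold changes of -0.50 to -0.70, and it was at -0.24 without both unstimulated replicates 1 and 2. For the most inducible genes the spread in unstimulated cells decided the value. Hspa1a, Hspa1b and Hspb1 had 0.90 ± 0.76, 0.85 ± 0.71 and 0.97 ± 0.54 and were not called. Without unstimulated replicates 1 and 2 they were at 3.39, 3.07 and 2.32 and called, and without unstimulated replicates 3 and 4 they were at 0.02, 0.00 and 0.31 and not called.

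IL-4+anti-CD40 raised 8 of 10 members where 30.4% of all genes rose. Hspa8 rose by 1.71 ± 0.14 (log2), Hsp90aa1 by 1.79 ± 0.23, Hsph1 by 2.24 ± 0.40, Hsp90ab1 by 1.17 ± 0.12 and Hsf1 by 0.76 ± 0.08 (edgeR adjusted p from 1.3e-05 to 0.0011, n = 4 against 4). These 5 stayed called without IL-4+anti-CD40 replicates 3 and 4, at 1.49, 1.44, 1.5, 1.06 and 0.80. The other rises were Hspa1b at 3.82 ± 1.29, Hspa1a at 3.77 ± 1.29 and Hspb1 at 2.17 ± 0.83 (edgeR adjusted p = 0.027, 0.029 and 0.046). All of these were lost without IL-4+anti-CD40 replicate 4 or without unstimulated replicate 3 or 4, and they were at 0.32, 0.38 and 0.43 without both IL-4+anti-CD40 replicates 3 and 4. Without unstimulated replicates 1 and 2 they stayed called and were larger, at 6.05, 6.28 and 3.51 (edgeR adjusted p = 0.013, 0.013 and 0.024), and without unstimulated replicates 3 and 4 they were at 2.97, 2.90 and 1.48 and not called. Hspb1 was also lost without IL-4+anti-CD40 replicate 3 or unstimulated replicate 1. Dnajb1 and Bag3 were not called, at 0.18 ± 0.15 and 0.28 ± 0.33.

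Between the stimuli, 8 of 10 members were lower with LPS than with IL-4+anti-CD40, where 17.3% of all genes were lower. These calls depended on single libraries of both groups, and the direction for Hspa1a and Hspa1b depended on IL-4+anti-CD40 replicates 3 and 4. Hspa1a differed by -2.85 ± 0.97 (log2), Hsph1 by -1.05 ± 0.30 and Hspa8 by -0.46 ± 0.11 (edgeR adjusted p = 0.036, 0.016 and 0.0064, n = 4 against 4). Without IL-4+anti-CD40 replicates 3 and 4, only Hsph1, Hsp90ab1 and Hspa8 were called lower, at -0.26, -0.20 and -0.20, Hspa1b was called higher at 0.61 (edgeR adjusted p = 0.033), and Hspa1a was at 0.60 and not called. Leaving out LPS replicate 1, 3 or 4 left 3 calls, leaving out LPS replicate 2 left 4, and leaving out IL-4+anti-CD40 replicate 3 or 4 left 5. With DSF present, Hspa1a and Hspa1b were higher with LPS than with IL-4+anti-CD40, by 0.35 and 0.28 (edgeR adjusted p = 0.0053 and 0.012), where 21.8% of all genes were higher. Hspa1b lost its call without IL-4+anti-CD40 with DSF replicate 1, and with all 20 libraries in 1 edgeR fit 0 members were called and 0 had an unadjusted p under 0.05, while DESeq2 called both genes. The other 8 members lay between -0.11 and 0.02 and were not called, although scaling to total counts called 4 of them lower.

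The difference between the DSF effects under the 2 stimuli was tested as an interaction. It was positive and called for 6 of 10 members, where 7.92% of all genes were, that is, a larger effect under LPS: Hspa1b 3.27 ± 1.00 (log2), Hspa1a 3.24 ± 0.98, Hsph1 1.12 ± 0.32, Bag3 0.95 ± 0.28, Hspa8 0.52 ± 0.13 and Hsp90ab1 0.38 ± 0.09 (edgeR adjusted p from 0.00645 to 0.032). Without IL-4+anti-CD40 replicates 3 and 4, Hspa1b and Hspa1a went to -0.26 and -0.19 and lost their calls, as did Bag3 at 0.41. Hsph1, Hspa8 and Hsp90ab1 kept theirs at 0.35, 0.27 and 0.25. With LPS replicate 1 left out 3 members were called, and with all genes that had any count in the fit 9 were. With the replicate number as a block Hspa1a and Hspa1b lost their calls, at 2.61 and 2.60 (edgeR adjusted p = 0.053 and 0.059), and Hsp90aa1 gained one. With all 20 libraries in 1 edgeR fit 0 of 10 were called and 6 had an unadjusted p under 0.05, while DESeq2 on the 16 libraries called 5 of the 9 members to which it gave an adjusted p.

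The 4 IL-4+anti-CD40 libraries without DSF can be placed on the scale set by DSF. As a percent of the mean with DSF, Hspa1b was at 0.391, 0.562, 4.53 and 17.2 in replicates 1 to 4, Hspa1a at 0.404, 0.628, 4.45 and 17.4, and Hspb1 at 1.29, 1.08, 3.32 and 11.1. For Hsph1 the percents were 7.65, 8.64, 14.8 and 25.5, and for Bag3 6.03, 7.84, 10.4 and 17.1. In every chaperone gene replicate 4 was the highest and replicate 3 the next. The LPS libraries spread less, with Hspa1b at 0.336 to 0.883% and Hsph1 at 6.30 to 7.16% of the LPS+DSF mean. Replicates 3 and 4 were above replicates 1 and 2 there too in Hspa1a, Hspa1b, Hspb1, Dnajb1 and Hsph1. With DSF, replicates 3 and 4 were above in every chaperone gene under LPS, and in every one but Hspa1a under IL-4+anti-CD40. Among the other genes with a log2 rise of at least 3 with DSF under LPS, 147 genes chosen after the values were seen, the median was 8.69, 7.32, 17.9 and 27.0% in the 4 IL-4+anti-CD40 libraries and 6.91 to 8.10% in the LPS libraries. That rule itself sets a low percent for the LPS libraries and not for the IL-4+anti-CD40 ones, so the 2 stimuli cannot be compared here. Replicates 3 and 4 were thus nearer to the DSF level in these genes as well as in the chaperones, and the cause was not tested.

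**Figure D3:**
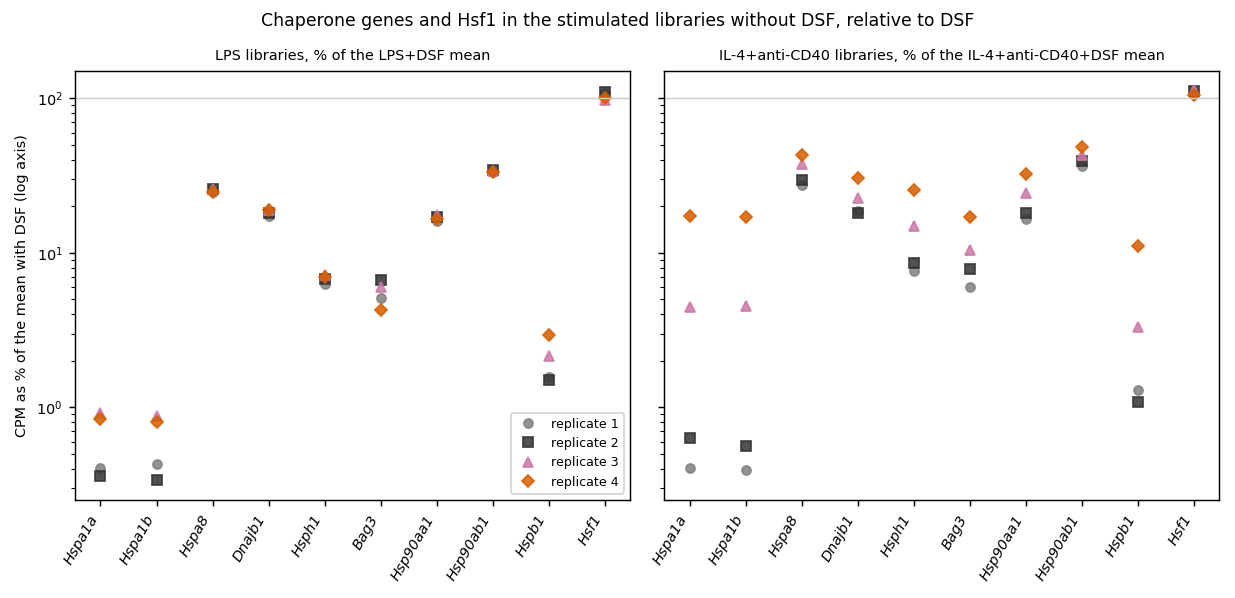
CPM of each gene in the 4 libraries of each stimulus without DSF, as a percent of the mean of the 4 libraries with the same stimulus and DSF, on a log axis. With IL-4+anti-CD40 replicate 4 reached 17.2% for Hspa1b while replicates 1 and 2 were under 1%, and the LPS replicates lay closer together.

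The second experiment had 1 library per condition, so its differences have no replicate check and no test. Called there means past 2-fold, and the intervals are 95% counting intervals that cover counting error only. With DSF, 9 of 10 members were past 2-fold higher under LPS, where 20.3% of 14275 genes were, and 9 of 10 under IL-4+anti-CD40, where 21.9% were. Hspa1b went from 10.67 CPM with LPS to 16105 CPM when DSF was added, a log2 ratio of 10.55 (10.34 to 10.75), and from 7.97 CPM with IL-4+anti-CD40 to 12043 CPM, 10.54 (10.31 to 10.78). Hspa1a went from 6.71 to 10929 CPM with LPS and from 6.71 to 8006 CPM with IL-4+anti-CD40. The highest level of Hspa1b with DSF in the first experiment was 5444 CPM, on CPM normalized within each experiment.

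The remaining chaperones kept the order of the first experiment in part. Log2 ratios with DSF under LPS and under IL-4+anti-CD40 were 6.65 and 6.38 for Hspb1, 5.99 and 5.55 for Bag3, and 5.02 and 4.62 for Hsph1. They were 3.78 and 3.29 for Dnajb1, 3.29 and 3.08 for Hsp90aa1, 2.40 and 2.06 for Hspa8, and 1.74 and 1.38 for Hsp90ab1. Dnajb1 was above Hsp90aa1 here and below it under LPS in the first experiment. Hsf1 was at 102.4 CPM with LPS and 80.65 CPM with DSF added, and at 109.3 and 86.21 CPM with IL-4+anti-CD40, log2 ratios of -0.34 under each stimulus. The FPKM of Hspa1a and Hspa1b together was 3.96 times that of Hspa8 with LPS and DSF and 3.29 times with IL-4+anti-CD40 and DSF, against 0.0134 and 0.010 without. The ratio of Hsp90aa1 to Hsp90ab1 in FPKM was 0.629 and 0.649 with DSF and 0.214 and 0.201 without.

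Ibrutinib at the same dose of 1 µM gave much smaller differences. Under LPS 1 of 10 members was past 2-fold lower, where 2.47% of all genes were: Hspb1, from 1.82 to 0.80 CPM on 33 and 19 counts, a log2 ratio of -1.09 (-1.91 to -0.28). The other 9 lay between -0.27 for Hsp90aa1 and 0.51 for Hspa1a. Under IL-4+anti-CD40 none of the 10 was past 2-fold in either direction, where 3.92% of all genes were, and log2 ratios ran from -0.54 for Bag3 to 0.23 for Hspa1b. Hspa1b was at 12.20 CPM with LPS and ibrutinib and at 9.34 CPM with IL-4+anti-CD40 and ibrutinib. Both drugs were compared with the same library of each stimulus.

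For the stimuli alone, 3 members were past 2-fold higher with LPS in the second experiment, where 8.62% of all genes were, and 3 with IL-4+anti-CD40, where 10.7% were. In both cases these were Hspa8 (1.25 and 1.42, log2), Hsp90aa1 (1.14 and 1.26) and Hsph1 (1.17 and 1.28). Hspa1b, at 11.21 CPM in unstimulated cells, had log2 ratios of -0.07 with LPS and -0.49 for IL-4+anti-CD40, and Bag3 had -1.11 and -0.83, so that with LPS it was past 2-fold lower, as were 9.88% of all genes. Scaled to total counts, 2 members were past 2-fold higher with LPS. The IL-4+anti-CD40 library of this experiment was below replicates 1 and 2 of the first one for Hspa1a and Hspa1b, at 6.71 and 7.97 CPM, again on CPM normalized within each experiment.

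**Figure D4:**
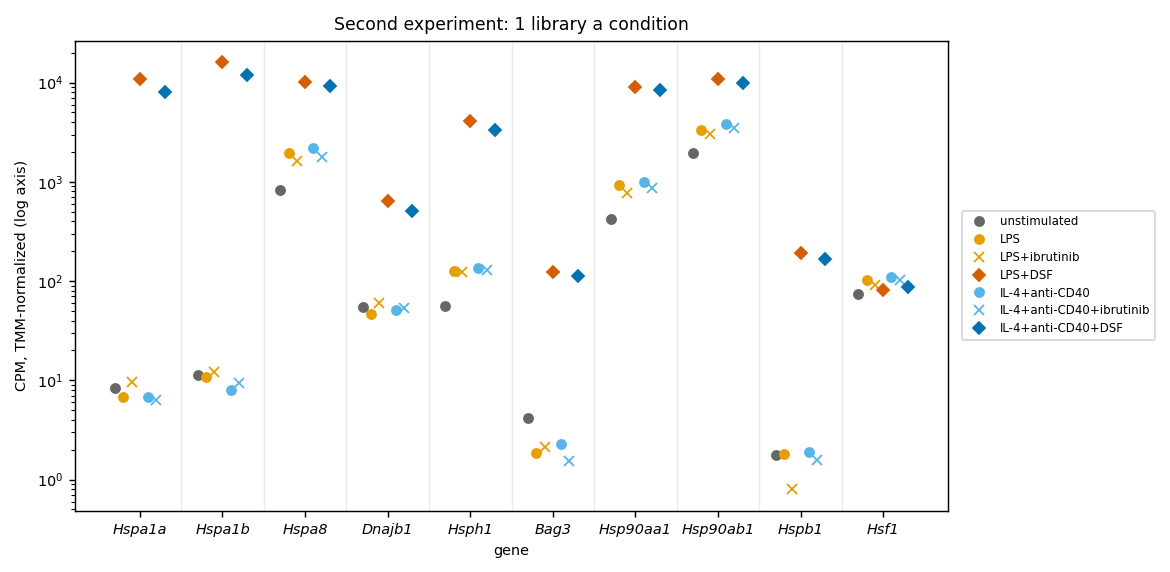
Level of each gene in the 7 libraries of the second experiment, in TMM-normalized CPM on a log axis. Diamonds (DSF) lie above all other libraries in the 9 chaperone genes, with Hspa1b at 16105 CPM with LPS and DSF, and crosses (ibrutinib) lie within 2-fold of the circles of the same stimulus except for Hspb1 with LPS.

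The wider chaperone network was read from 6 lists. Of 14 co-chaperones of Hsp90, 9 rose and 1 fell with DSF under LPS, and 9 rose and 3 fell under IL-4+anti-CD40. Over all genes tested, 35.1% rose and 36% fell under LPS, and 30.1% and 31.6% under IL-4+anti-CD40. Ahsa2 and Ahsa1, activators of the Hsp90 ATPase, had log2 fold changes of 2.97 and 1.54 under LPS and 2.26 and 1.20 under IL-4+anti-CD40. Chordc1, a zinc-binding partner of Hsp90, had 2.08 and 1.66. Of 19 relatives and partners of Hsp70 in the cytosol, 12 rose and 6 fell under LPS and 11 rose and 4 fell under IL-4+anti-CD40, and the share that fell under LPS was near that of all genes. Those named are Hspa4l, an Hsp110 relative, at 3.21 and 2.75, Dnaja4, an Hsp40, at 3.16 and 2.56, and Hspa1l, an Hsp70 gene beside Hspa1a, at 3.29 and 2.04. Dnaja4 and Hspa1l stayed under 10 CPM in every library of the first experiment.

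Only 3 of 8 other small heat shock protein genes passed the low-count filter under LPS and 2 under IL-4+anti-CD40. Hspb7 rose by 4.96 and 2.41 (log2) at no more than 2.22 CPM in any library of the first experiment, and Hspb6 fell by 0.75 and 0.61. Among 8 other heat shock targets 7 were tested, and 6 rose and 1 fell under each stimulus. Of all genes tested, 35.1% rose and 36% fell under LPS, and 30.1% rose and 31.6% fell under IL-4+anti-CD40. Zfand2a, a proteasome-associated zinc finger gene, went from 20.58 to 25.43 CPM with LPS to 249.9 to 273.2 CPM with DSF, at 3.60 and 2.58 (log2). Dedd2 rose by 3.33 and 2.62. Of the factors related to HSF1 and their binding protein, 3 of 4 were tested. Hsf4 rose by 3.11 and 2.69, at no more than 2.67 CPM in the first experiment, and Hsbp1, which encodes a protein that binds HSF1 trimers, fell by 0.44 and 0.26.

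Relatives of the members in organelles moved less. Hsp90b1, the Hsp90 of the endoplasmic reticulum, rose by 0.91 ± 0.04 (log2) under LPS and by 0.44 ± 0.06 under IL-4+anti-CD40 with DSF. Hspa5, the Hsp70 of the endoplasmic reticulum known as BiP, rose by 0.50 ± 0.04 under LPS and was at 0.08 ± 0.05 under IL-4+anti-CD40 (edgeR adjusted p = 0.25). Hspa9, the Hsp70 of mitochondria, rose by 0.29 ± 0.04 under LPS and was at 0.12 ± 0.06 under IL-4+anti-CD40 (edgeR adjusted p = 0.095). Trap1, the Hsp90 of mitochondria, fell by 0.68 ± 0.05 and by 0.76 ± 0.06. As a median (log2) these 4 genes had 0.40 under LPS and 0.10 under IL-4+anti-CD40, beside 2.18 and 1.86 for the other heat shock targets and 0.45 and 0.44 for the Hsp90 co-chaperones.

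The stimuli without DSF were read from the same lists. With LPS 10 of 14 Hsp90 co-chaperones rose in edgeR's test, and with IL-4+anti-CD40 13 rose. Of 7 other heat shock targets, 2 rose and 2 fell with LPS and 3 rose with IL-4+anti-CD40. With LPS 29.6% of all genes rose and 33.3% fell, and with IL-4+anti-CD40 30.4% rose, so the counts of these targets were near those shares. Hspa5 rose by 1.64 (log2) with LPS and by 1.76 under the other stimulus, and Hspa9 by 1.23 and 1.57, so that for these organelle Hsp70s the stimulus gave a larger log2 fold change than DSF.

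Genes with a profile like that of the inducible chaperones were sought among 15575 genes over the 20 libraries of the first experiment, by Pearson's correlation with the mean standardized log2 CPM of Hspa1a, Hspa1b, Hspb1, Dnajb1, Hsph1 and Bag3. The 5 most alike were Atp6ap2 (0.995) and Atp6v0c (0.993), parts of the proton pump of lysosomes, Zfand2a (0.994), Ftl1 (0.994), the light chain of the iron store ferritin, and Sod1 (0.993), a copper and zinc superoxide dismutase. Ftl1 was at 235.2 to 272.8 CPM with LPS, 1479 to 1715 CPM with LPS and DSF, 265.8 to 626.5 CPM with IL-4+anti-CD40 and 1600 to 1871 CPM with DSF added. Sod1 was at 114.1 to 124.6 CPM with LPS and 367.5 to 436.3 CPM with LPS and DSF. The other members correlated less, with 0.972 for Hsp90aa1, 0.963 for Hsp90ab1, 0.945 for Hspa8 and 0.382 for Hsf1. The points are libraries of 5 groups, 8 of them with DSF, and they share the difference between groups with and without it.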

How the data were processed

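RNA of 27 libraries of mouse spleen B cells was analysed, 20 in the first experiment and 7 in the second. Per the labels and the study's methods, the authors used Fastp for trimming, HISAT2 2.0.5 for alignment to mm10 and featureCounts 1.5.0-p3 for counting per gene, and they deposited raw counts per gene and FPKM computed from those counts and gene lengths. The strand setting of the counting is not given in the sources used here. Counts were tested with edgeR 4.0.16 (R 4.3.3) by its quasi-likelihood test on genes kept by filterByExpr, with TMM scaling, only the groups compared in each fit and no covariate. The p-values were adjusted by the Benjamini-Hochberg method over all genes tested, with a threshold of 0.05, and the members' rows were then read out. CPM used TMM library sizes, and FPKM was used only to compare genes with each other. In the second experiment log2 ratios of CPM with a prior count of 2 were taken over genes averaging 10 counts or more across the 7 libraries. Depth per library is given in the text above, and counting intervals are 95% intervals. Alternatives were DESeq2 1.42.0, other scalings and filters, a fold minimum, 1 fit over all 20 libraries, the replicate number as a block, summed Hspa1a and Hspa1b counts, and leaving out libraries. The edgeR and DESeq2 steps were tested on simulated data. Tables were made with Python 3.11.15, pandas 2.3.3 and numpy 2.4.6.

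The members and gene lists were chosen with earlier results of these data known. All 10 members are named. From each list at most 3 genes are named, those called in the same direction in both DSF comparisons with the largest mean log2 fold change, and all 4 organelle relatives. Genes alike are the 5 with the highest correlation. Promoter sequences are from RefSeq, and those of Hsp90aa1, Hsp90ab1, Hspa8 and Hsf1 are not shown here. No deposited column held comparisons by the authors that were used here.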

Additional observations from a re-analysis of the deposited data

Results flagged for a closer look

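A difference between the effects of DSF under the 2 stimuli stood out for 6 genes, by the interaction term of edgeR (DSF effect under LPS minus that under IL-4+anti-CD40, log2): Hspa1a 3.24, Hspa1b 3.27, Hsph1 1.12, Hsp90ab1 0.38, Hspa8 0.52 and Bag3 0.95. Without IL-4+anti-CD40 replicates 3 and 4 these were -0.19, -0.26, 0.35, 0.25, 0.27 and 0.41, and Hspa1a, Hspa1b and Bag3 were no longer called. With all 20 libraries in 1 fit 0 of the 6 were called, at adjusted p-values of 0.12, 0.12, 0.12, 0.16, 0.077 and 0.12, and all 6 had an unadjusted p under 0.05. With the replicate number as a block Hspa1a and Hspa1b were no longer called, at adjusted p-values of 0.053 and 0.059. The cause of the spread between those libraries was not tested. Dixon's test for a single library far from the other 3 of its group picked out 0 of the 50 combinations of gene and group, although 2 of 4 libraries apart together escape it.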

How the results depend on the processing

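Of 70 member log2 fold changes called in the first experiment, 44 kept direction and call under every setting that gave an adjusted p. DESeq2 gave none for Hspa1a and Hspa1b (DSF under IL-4+anti-CD40) and Hspa1a (interaction), and called 8 of the 8 others for DSF under IL-4+anti-CD40. Below, the cause was not tested unless fewer libraries or a stricter rule make it plain.

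With a log2 fold change of at least 1 required, LPS against unstimulated cells had 3 members higher and 0 lower, DSF under IL-4+anti-CD40 had 0 lower, LPS against IL-4+anti-CD40 had 3 lower, LPS with DSF against IL-4+anti-CD40 with DSF had 0 higher, and the interaction had 3. With all 20 libraries in 1 fit these were 0 lower for DSF under IL-4+anti-CD40, 0 higher between the DSF groups and 0 for the interaction. Total-count scaling gave 1 lower for DSF under LPS, and 1 higher and 4 lower between the DSF groups, with Hsph1, Bag3 and Hsf1 at -0.11, -0.11 and -0.12 there. All genes with any count gave 9 for the interaction, 1 lower for LPS, and -0.0070, -0.0076 and -0.015 for those 3 genes, where 1 fit over all 20 libraries gave -0.0017, -0.00086 and -0.0099. Hspa8 there was 0.0085 with DESeq2 and with its size factors in edgeR, and 0.0017 with at least 10 counts in every library. Summing Hspa1a and Hspa1b gave 1 higher there.

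The replicate number as a block gave 5 members higher for IL-4+anti-CD40 and 5 lower for LPS against IL-4+anti-CD40, and for the interaction 5 members, without Hspa1a and Hspa1b and with Hsp90aa1. The numbers do not show that libraries are paired: over 40 pairs of same-numbered libraries, deviations from group means correlated at -0.056 to 0.169, and in 0 of 10 pairs of groups did every pair pass 0.1. These correlations are over all genes kept. In Hspa1b, Hspb1, Dnajb1 and Hsph1, replicates 3 and 4 were above replicates 1 and 2 in every stimulated group, with or without DSF. In unstimulated cells Hspa1b, Hspb1 and Hsph1 went the other way. Whether same-numbered libraries share a source was not tested.

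Without unstimulated replicates 1 and 2, LPS had 8 members higher and 1 lower. Without unstimulated replicates 3 and 4, IL-4+anti-CD40 had 5 higher and Bag3 at -0.065. Without IL-4+anti-CD40 replicates 3 and 4 it had 5 higher, with Dnajb1 at -0.055 and Bag3 at -0.25, LPS against IL-4+anti-CD40 had 1 higher and 3 lower with Hspa1a, Hspa1b and Hspb1 at 0.60, 0.61 and 0.63, and the interaction had 3 with the same genes at -0.19, -0.26 and -0.66.

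Leaving out 1 library at a time gave 1 to 2 members lower for LPS, 5 to 8 higher for IL-4+anti-CD40 (Bag3 -0.050 to 0.47), 0 to 1 lower for DSF under IL-4+anti-CD40, 3 to 8 lower for LPS against IL-4+anti-CD40, 1 to 2 higher between the DSF groups and 3 to 8 for the interaction. Between the DSF groups log2 fold changes then ran from -0.029 to 0.062 for Hsph1, -0.052 to 0.016 for Hsp90ab1, -0.051 to 0.041 for Hspa8, -0.030 to 0.067 for Bag3 and -0.036 to 0.041 for Hsf1. Of the 5 genes most alike, 2 were shared with Spearman's correlation and 3 when the 8 libraries with DSF were left out.

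Depth limited Hspb1 and Bag3 most, with 3 to 31 and 30 to 120 counts per library in unstimulated and LPS cells. Near copies and overlapping genes limit Hspa1a, Hspa1b and Bag3, the second experiment has no replicates, and no library measured DSF without a stimulus.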
